A study of Homo sapiens with 12 samples.

Results

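The miR-15 and miR-16 family is a group of microRNAs whose 5p strands begin alike, and 10 of its strands were followed across cells that carry different versions of DICER. The strands were chosen by name from the 1346 miRNA entries of the count tables, 6 of them 5p strands (hsa-miR-15a-5p, hsa-miR-15b-5p, hsa-miR-16-5p, hsa-miR-195-5p, hsa-miR-424-5p and hsa-miR-497-5p) and 4 of them 3p strands (hsa-miR-15b-3p, hsa-miR-16-1-3p, hsa-miR-16-2-3p and hsa-miR-424-3p). The species prefix is left out below. All 10 were among the 374 entries with enough counts to be tested. Mature miRNAs had been sequenced from HCT116, a human colorectal carcinoma line, by AQ-seq, a small-RNA method built to lower the bias of adapter ligation. There were 12 libraries in 6 groups of 2. Every group is a DICER rescue, that is, cells given back a DICER protein, which was R821E, R821A, E5, A5, ΔPAZ helix or the wild-type (WT) protein that served as the control. R821E and R821A carry glutamate or alanine in place of the arginine R821, and the name ΔPAZ helix points to a deleted helix in the PAZ domain. The sources used here do not give what E5 and A5 denote, the level of each rescue protein, the state of the cells' own DICER, or whether a group was 1 clone. The labels do not tie the libraries of a group to separate cultures, so the p-values reflect the spread between libraries, which may be technical.

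DICER is the RNase III enzyme that cuts the loop from a precursor hairpin, leaving a duplex of a 5p strand and a 3p strand, one of which is usually kept by an Argonaute protein while its partner is degraded. The kept strand finds messenger RNAs mainly through its seed, bases 2 to 8. The miR-15 and miR-16 family acts as a brake on cell division and survival in many tissues, with BCL2 and G1 cyclins among its known targets, and the pair made by MIR15A and MIR16-1 is known for its loss in chronic lymphocytic leukaemia.

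The mature sequences show what the family shares. They come from RefSeq (GRCh38.p14), all 10 members were matched there by name, and each is written 5′ to 3′ with the seed in capitals. The 5p members come first.
miR-15a-5p: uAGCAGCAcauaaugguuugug
miR-15b-5p: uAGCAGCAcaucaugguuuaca
miR-16-5p: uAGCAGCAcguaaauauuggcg
miR-195-5p: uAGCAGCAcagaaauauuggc
miR-424-5p: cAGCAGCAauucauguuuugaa
miR-497-5p: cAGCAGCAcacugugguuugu
miR-15b-3p: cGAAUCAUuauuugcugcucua
miR-16-1-3p: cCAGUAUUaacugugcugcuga
miR-16-2-3p: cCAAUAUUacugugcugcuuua
miR-424-3p: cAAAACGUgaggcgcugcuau

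The 6 members from the 5p side carry 1 seed, AGCAGCA, while the 4 from the 3p side carry 4 different ones. Of 1179 table entries that could be matched to a RefSeq sequence, 7 had the seed AGCAGCA, the 6 members and miR-6838-5p, which had 1 count in all 12 libraries together. miR-15a-5p, miR-15b-5p, miR-16-5p and miR-195-5p start with U, and miR-424-5p and miR-497-5p with C. miR-16-5p and miR-195-5p differ at 2 of the 21 positions they share, and miR-15a-5p and miR-15b-5p at 4 of 22. The counting of reads that match several entries is not stated, so the low level of miR-195-5p is uncertain.

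The genes lie in pairs, so that the members of a pair can be cut from a common primary transcript. MIR15B (chr3:160404588-160404685, plus strand, GRCh38.p14) and MIR16-2 (chr3:160404745-160404825, plus strand) sit in an intron of SMC4, a condensin subunit gene, with 59 bases between them. MIR16-1 (chr13:50048973-50049061, minus strand) lies in an intron of the long non-coding RNA gene DLEU2, and MIR15A (chr13:50049119-50049201, minus strand) overlaps an annotated exon of it, with 57 bases between the pair. MIR195 (chr17:7017615-7017701, minus strand) and MIR497 (chr17:7017911-7018022, minus strand) overlap exons of their host gene MIR497HG, and MIR424 (chrX:134546614-134546711, minus strand) lies 215 bases from MIR503. miR-16-5p is made identically by MIR16-1 and MIR16-2, and its single entry cannot tell them apart, whereas the 3p strands can. The stretch from 5p strand to 3p strand is printed for the 3 hairpins whose strand ratios are given below, with the strands in capitals and the loop side in lower case.
MIR15B: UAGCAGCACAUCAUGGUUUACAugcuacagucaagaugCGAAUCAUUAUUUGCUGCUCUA
MIR16-2: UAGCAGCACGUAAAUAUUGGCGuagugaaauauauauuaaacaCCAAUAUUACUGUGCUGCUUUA
MIR16-1: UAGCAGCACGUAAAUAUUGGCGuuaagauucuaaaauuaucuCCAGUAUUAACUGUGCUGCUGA

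These stretches are 60, 65 and 64 bases long, with 16, 21 and 20 bases between the strands. All 3 begin with U on the 5p side and with C on the 3p side.

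Libraries held 144067 to 255296 miRNA counts, at which 3 counts equal 10.4 to 25.9 CPM (counts scaled to the TMM library size). This limit covers counting error alone, because reads of a PCR product need not be independent molecules. No use of molecular identifiers is assumed here. The R821E libraries stand apart. Their TMM factors were 0.714 and 0.804, against 0.990 to 1.15 in the others, and miR-21-5p took 56.0% ± 2.84 of their miRNA counts, against 40.4% ± 3.89 in WT (SD, n = 2 each). Levels are therefore given on a pair of scales. The TMM scale measures a miRNA relative to the bulk of miRNAs. The spike-in scale measures it relative to 30 added sequences, of which libraries held 9529 to 14969 counts. In bulk RNA, fewer cells that make a miRNA and less of it per cell cannot be told apart. miRNA counts per spike-in count were 14.3 ± 1.38 in R821E and 24.2 ± 2.49 in WT. The median log2 fold change of all tested entries in R821E against WT was -0.10 with TMM scaling. It was -0.65 with total counts as the scale and -1.38 with spike-in scaling. The WT libraries differed most from each other, with a chi-square of 29.1 per degree of freedom, against 3.89 to 15.4 in the other groups. On the marker list fixed for the tissue, all 5 intestinal and epithelial miRNAs were in the table, but their summed level was only 208 to 380 CPM (TMM scale), and miR-215-5p had 0 to 2 counts. Blood miRNAs summed to 401 to 596 CPM over 4 entries, with miR-223-3p at 0 to 2 counts, and stromal miRNAs to 342 to 1073 CPM over 4. Those of muscle, neurons and liver reached at most 12.2 CPM, with 1 of the 3 muscle miRNAs in the table. In R821E against WT (TMM scale), 1 of 3 tested blood miRNAs rose and 1 fell, 2 of 3 stromal ones fell, and 1 of 3 intestinal ones fell, beside 23.8% of all tested entries that rose and 24.1% that fell. Their part in the results was not tested.

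The family was dominated by miR-16-5p. It made up 56.3% of the family's counts on average over the 12 libraries (48.2% to 59.9%) and ranked 9 among all miRNA entries in WT. miR-15b-5p followed with 23.2%, miR-15a-5p with 10.9% and the passenger strand miR-16-2-3p with 4.57%. miR-15b-3p made up 1.96%, miR-424-5p 1.30%, miR-16-1-3p 0.982% and miR-195-5p 0.496%. miR-497-5p and miR-424-3p, with 0.153% and 0.116%, had 2 to 15 counts a library, so their fold changes are poorly determined. All 10 are 21 or 22 bases long, and these shares compare counts with no further correction.

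On the TMM scale, 7 of the 10 members rose in R821E cells against WT and none fell. The calls are from edgeR's quasi-likelihood test with Benjamini-Hochberg adjustment over all 374 entries at 0.05. Over all tested entries 23.8% rose and 24.1% fell. Both R821E libraries lay above all 10 others for 6 of the members, beside 24.6% of tested entries. The members' median log2 fold change was 0.69, beside -0.10 over all tested entries and 0.17 over all tested 5p entries. The 7 were miR-15a-5p, miR-15b-5p, miR-16-5p, miR-195-5p, miR-424-5p, miR-16-1-3p and miR-16-2-3p, the main strands of 5 hairpin types and both 3p strands of miR-16. DESeq2 also called 7. Against the spike-ins the picture turned: no member rose, and 3 fell (miR-15b-3p, miR-15b-5p and miR-16-5p), where 0.267% of all entries rose and 60.4% fell. The median over the members was then -0.61, beside -1.38 over all. With total counts as the scale, 1 member was called, miR-15b-3p, lower.

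**Figure D1:**
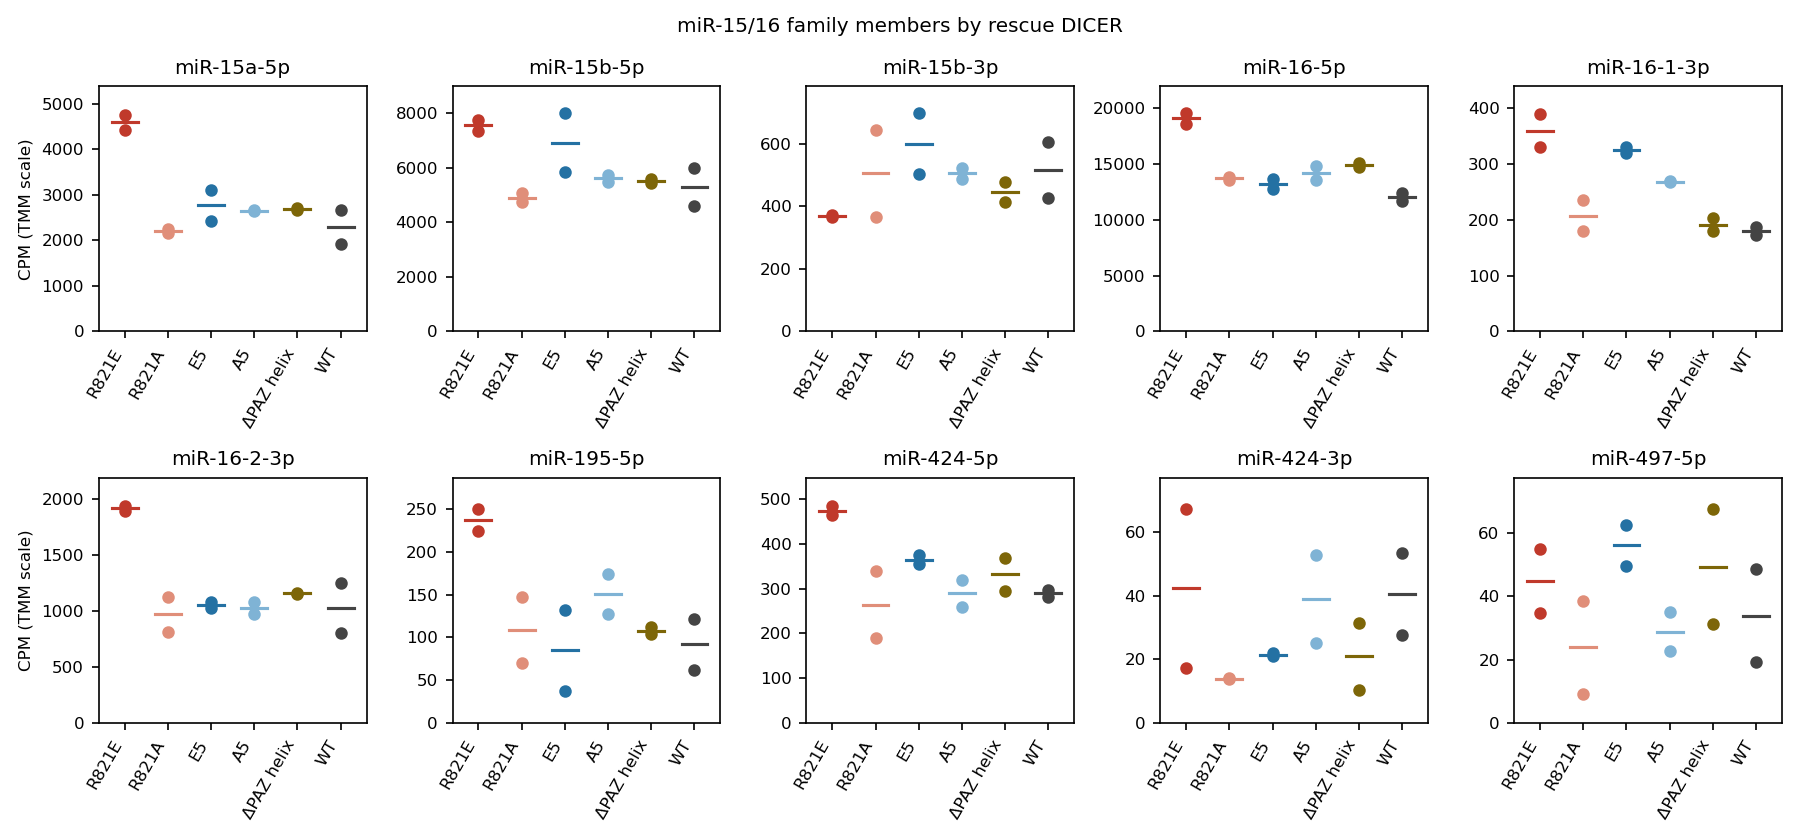
Level of each family member (vertical axis, CPM on the TMM scale, from 0) in the 2 libraries of each rescue group; points are libraries and bars are group means. The R821E points stand above all others for miR-15a-5p, miR-16-5p, miR-16-1-3p, miR-16-2-3p, miR-195-5p and miR-424-5p, and the mean of miR-15b-3p is lowest there.

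miR-16-5p, the most abundant member, had 19559 and 18589.9 CPM in R821E, 13819 and 13581 CPM in R821A, 13629.5 and 12724 CPM in E5, 13510.5 and 14788 CPM in A5, 15082 and 14664 CPM in ΔPAZ helix, and 12355 and 11652 CPM in WT (TMM scale). Both R821E libraries were above the other 10, and the WT libraries were the lowest. Its log2 fold change in R821E against WT was 0.67 ± 0.115 (SE; adjusted p = 0.000501, edgeR). Per 1000 spike-in counts R821E and WT changed ends, while the order of the other groups did not reverse. The R821E libraries then had 214 and 199.6 counts. R821A libraries had 272 and 308, E5 libraries 244 and 222, A5 libraries 256 and 293, ΔPAZ helix libraries 307 and 275, and WT libraries 319 and 320.5. R821E was lowest and WT highest. For 48.1% of all tested entries both R821E libraries lay below every other library on this scale. The log2 fold change on that scale was -0.63 ± 0.138 (adjusted p = 0.00138, edgeR). From low to high on the TMM scale, the group means were 12004 ± 497 CPM in WT, 13177 ± 640 in E5, 13700.0 ± 168 in R821A, 14149 ± 903 in A5, 14873 ± 296 in ΔPAZ helix and 19074 ± 685 in R821E (SD, n = 2 each). In that order E5, R821A and A5 overlapped in their libraries, as did A5 and ΔPAZ helix, while R821E and WT were separated from their neighbours. Mutants other than R821E each lay above both WT libraries for 18.7% (A5) to 21.9% (E5) of tested entries. The share of entries with WT at the end of all groups is not given, on either scale. The difference of E5 from WT did not pass (log2 0.13 ± 0.115, adjusted p = 0.540, edgeR).

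miR-15a-5p, the partner of miR-16-1 in the DLEU2 pair, stood higher in R821E than in any other library. It had 4758 and 4432 CPM in R821E, against 2667 and 1911.5 CPM in WT, and 2168 to 3109 CPM in the 8 other libraries (TMM scale). The log2 fold change was 1.00 ± 0.170 (SE; adjusted p = 0.000454, edgeR). Against the spike-ins it was -0.28 ± 0.175 and did not pass (adjusted p = 0.179).

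miR-15b-5p, made from the SMC4 intron, had 7342 and 7766 CPM in R821E, against 5978 and 4586 CPM in WT (TMM scale). The groups did not overlap, and both R821E libraries lay above both WT libraries for 34.8% of all tested entries. Of the E5 libraries, with 5844 and 8008 CPM, 1 was above both R821E libraries. The log2 fold change in R821E against WT was 0.52 ± 0.163 (adjusted p = 0.0186, edgeR), and on the spike-in scale -0.78 ± 0.166 (adjusted p = 0.00113). The TMM call was lost without either R821E library (adjusted p = 0.0533 and 0.0661) or without WT replicate 2 (0.124).

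The 3p strands of miR-16, the passenger strands of the family's leading hairpins, rose in R821E with the 5p strand. miR-16-2-3p had 1894 and 1935 CPM in R821E, 813 and 1125 CPM in R821A, 1026 and 1077 CPM in E5, 1082 and 974 CPM in A5, 1161 and 1152 CPM in ΔPAZ helix, and 801 and 1248 CPM in WT (TMM scale). The R821E libraries were well above the rest, and those of WT and of R821A were spread wide. The log2 fold change against WT was 0.90 ± 0.215 (adjusted p = 0.00405, edgeR). miR-16-1-3p, with 39 to 79 counts a library, had 329.9 and 389 CPM in R821E, 235 and 179 CPM in R821A, and 173 and 187 CPM in WT. Its log2 fold change against WT was 0.99 ± 0.242 (adjusted p = 0.00477, edgeR). Against the spike-ins neither strand passed, with log2 fold changes of -0.40 ± 0.247 and -0.31 ± 0.236.

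More 3p strands fell than rose in R821E. Among 148 tested 3p entries, 18 rose and 56 fell on the TMM scale, and their median log2 fold change was -0.58. Ordered by fold change, 19 of these entries stood above miR-16-1-3p and 22 above miR-16-2-3p. miR-15b-3p, cut from the hairpin next to MIR16-2, had 66 above it.

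miR-15b-3p was the member that parted from the rest. It had 367 and 371 CPM in R821E, 645 and 367 CPM in R821A, 502 and 697 CPM in E5, 489 and 523 CPM in A5, 414 and 477 CPM in ΔPAZ helix, and 607 and 427 CPM in WT (TMM scale). Both R821E libraries lay below both WT libraries, as they did for 39.8% of all tested entries, with 1 R821A library at the same level. The log2 fold change against WT, -0.49 ± 0.291, did not pass on this scale (adjusted p = 0.180, edgeR). Per 1000 spike-in counts miR-15b-3p had 4.01 and 3.99 counts in R821E, against 15.6 and 11.8 in WT, and its log2 fold change of -1.78 ± 0.262 passed (adjusted p = 4.82e-05, edgeR). It passed with total counts as well, at -1.05 (adjusted p = 0.0152).

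Of the minor 5p members, miR-195-5p and miR-424-5p passed in R821E and miR-497-5p did not, all with wide errors. miR-195-5p had 250.4 and 225 CPM in R821E (41 and 26 counts), against 62.4 and 122 CPM in WT (18 and 32 counts). Its log2 fold change was 1.38 ± 0.484 (adjusted p = 0.0311, edgeR). miR-424-5p had 464 and 484 CPM in R821E, against 281 and 298 CPM in WT, a log2 fold change of 0.71 ± 0.271 (adjusted p = 0.0437). Both calls rest on few counts. That of miR-424-5p was lost when any 1 of the 4 libraries was left out (adjusted p = 0.0806 to 0.115), and that of miR-195-5p without either R821E library or WT replicate 1 (0.0691 to 0.133). miR-497-5p and miR-424-3p had log2 fold changes of 0.42 ± 0.665 and 0.18 ± 0.630 and did not pass (adjusted p = 0.634 and 0.836). By contrast, miR-15a-5p, miR-16-5p, miR-16-1-3p and miR-16-2-3p passed in each of the 4 fits that left out 1 library.

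**Figure D2:**
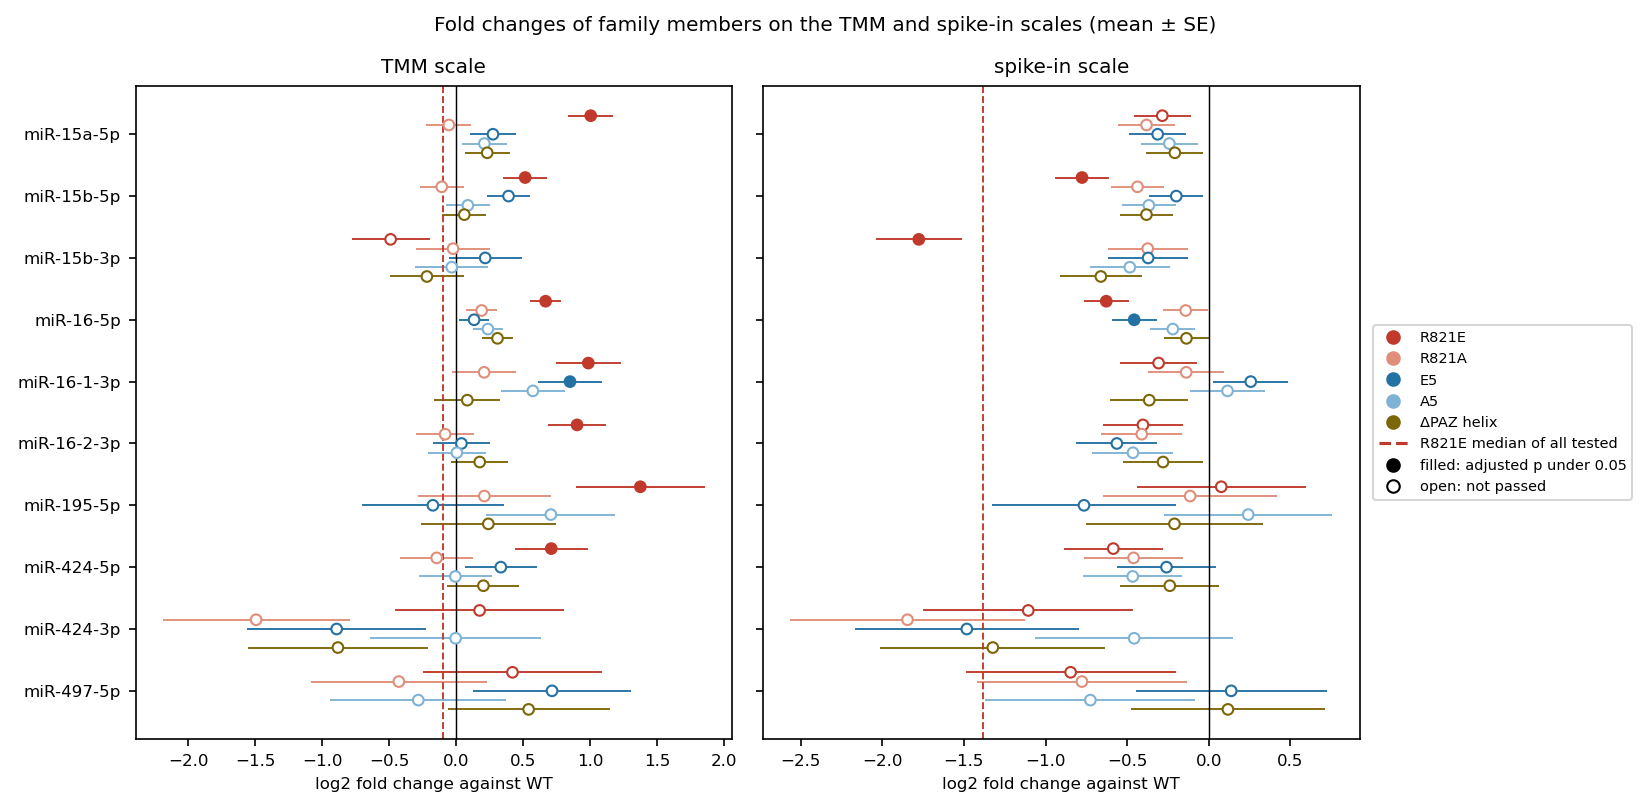
Log2 fold change of each member against WT (horizontal axis, ± SE) for the 5 mutants on the TMM scale (left) and the spike-in scale (right); filled points passed at an adjusted p of 0.05 and the dashed line is the R821E median over all 374 entries. On the TMM scale the R821E points of 7 members are filled and lie right of 0, and on the spike-in scale 3 are filled and lie left of 0. Among the R821E points on the spike-in scale, only that of miR-15b-3p is left of the dashed line at -1.38.

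R821E set against R821A compares glutamate with alanine at the same position. The protein level and clones of these groups are not given, so an effect of the residue cannot be told apart from theirs. Of the 10 members 6 rose and none fell on the TMM scale, where 21.9% of all entries rose and 19.5% fell. The log2 fold changes were 1.06 ± 0.170 for miR-15a-5p (adjusted p = 0.000622, edgeR), 0.98 ± 0.216 for miR-16-2-3p (0.00333), 0.48 ± 0.115 for miR-16-5p (0.00638) and 0.62 ± 0.164 for miR-15b-5p (0.00977). miR-16-1-3p (0.78 ± 0.241, adjusted p = 0.0209) and miR-424-5p (0.86 ± 0.276, adjusted p = 0.0246) also passed. miR-195-5p, at 1.16 ± 0.482, did not (adjusted p = 0.0664). Leaving out 1 library left 3 to 5 members. Without R821E replicate 1 there were 3, and miR-16-5p was not among them (adjusted p = 0.0541, edgeR). miR-16-1-3p was lost without either R821E library or R821A replicate 2 (0.0504 to 0.119), miR-424-5p without either R821E library or R821A replicate 1 (0.0804 to 0.227), and miR-15b-5p without R821A replicate 2 (0.0589). miR-195-5p passed without R821A replicate 2 (log2 1.79, adjusted p = 0.0383), and miR-424-3p without R821E replicate 2 (log2 2.29, adjusted p = 0.0488). On the spike-in scale miR-15b-3p (-1.40 ± 0.262, adjusted p = 0.000535) and miR-16-5p (-0.49 ± 0.138, adjusted p = 0.00955) fell and no member rose, where 0.267% of all entries rose and 48.9% fell. This comparison and that with WT share the R821E libraries, so they are not separate evidence.

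The ratio of strands from 1 hairpin does not depend on the scale. For miR-15b the 5p count divided by the 3p count was 20.03 and 20.9 in the R821E libraries. R821A libraries had 7.85 and 12.9, E5 libraries 11.6 and 11.5, A5 libraries 11.7 and 10.5, ΔPAZ helix libraries 13.1 and 11.7, and WT libraries 9.85 and 10.7. The R821E libraries were above the other 10, which did not exceed 13.1. The log2 ratio was 0.98 ± 0.229 higher in R821E than in WT (adjusted p = 0.00387, limma over 76 hairpins) and 1.02 ± 0.229 higher than in R821A (adjusted p = 0.00357). Many hairpins moved likewise: 39.5% of the 76 hairpins moved toward 5p in R821E against WT and 17.1% toward 3p, with 34.2% and 9.21% against R821A. The call held in each fit that left out 1 library, with log2 differences from WT of 0.92 to 1.04, and with differences from R821A of 0.66 (without R821A replicate 1, adjusted p = 0.0486) to 1.37 (without R821A replicate 2).

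For miR-16, whose 5p strand was set against both of its 3p strands together, the ratio was 8.80 and 8.0 in the R821E libraries. R821A libraries had 13.2 and 10.4, E5 libraries 10.1 and 9.05, A5 libraries 9.996 and 11.9, ΔPAZ helix libraries 11.2 and 10.8, and WT libraries 12.7 and 8.12. The R821E values were low and overlapped those of WT. Their log2 difference of -0.27 ± 0.236 did not pass (adjusted p = 0.350, limma), nor did that from R821A, -0.48 ± 0.236 (adjusted p = 0.122). Without WT replicate 2 the difference from WT was -0.60 and passed, toward 3p (adjusted p = 0.0292). Whether the shifts of miR-15b and miR-16 differ from each other was not tested in a fit. Only these 2 hairpins of the family had a mean of 20 counts in both strands. With a minimum of 5 counts, which admits 125 hairpins, the log2 ratio of miR-15a in R821E was 1.47 ± 0.633 above WT and did not pass (adjusted p = 0.0747), as its 3p strand had 1 to 15 counts.

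**Figure D3:**
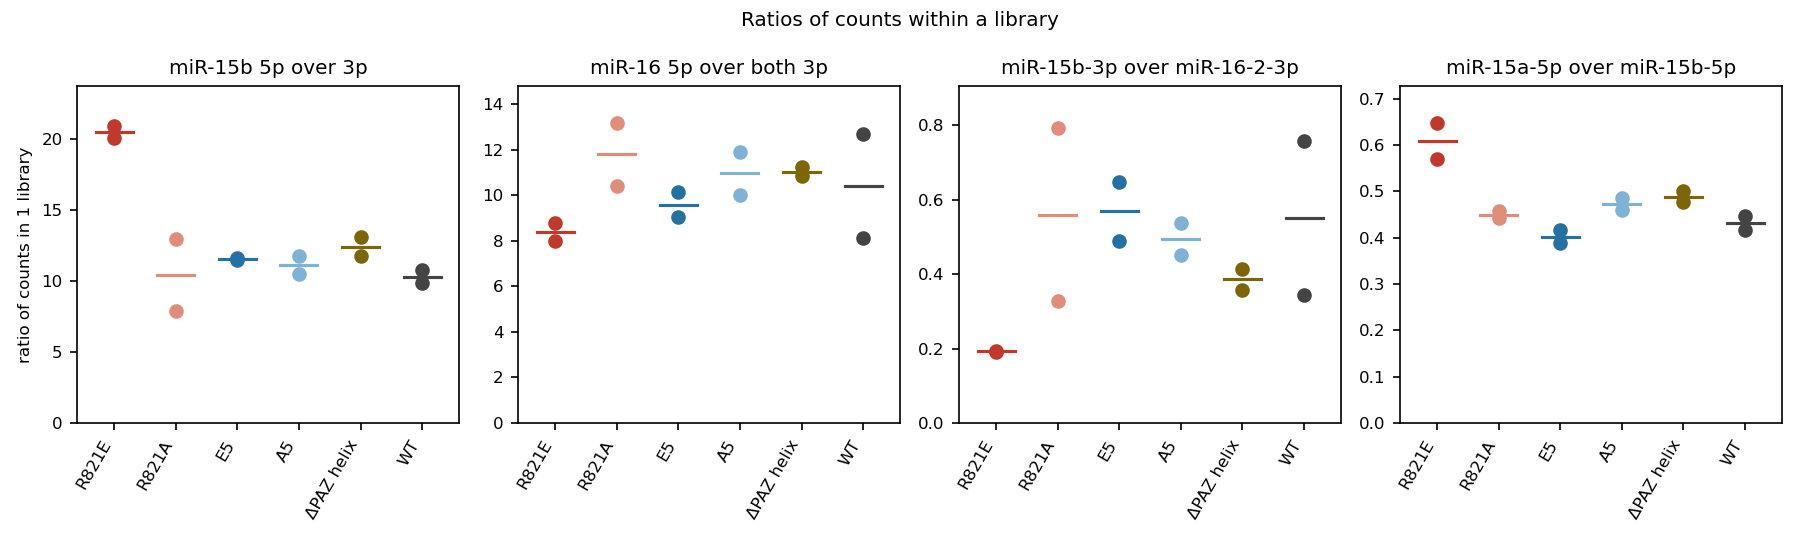
Ratios of raw counts within each library (vertical axes, from 0) for the 6 rescue groups; points are libraries and bars are group means. The R821E libraries stand at 20.03 and 20.9 for miR-15b 5p over 3p, and at the bottom of the panel for miR-15b-3p over miR-16-2-3p, where both are at 0.19.

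The neighbours MIR15B and MIR16-2 share a host intron, and the ratio of their 3p strands was lowest in R821E. The count of miR-15b-3p divided by that of miR-16-2-3p was 0.194 and 0.192 in the R821E libraries. R821A libraries had 0.793 and 0.327, E5 libraries 0.489 and 0.647, A5 libraries 0.452 and 0.537, ΔPAZ helix libraries 0.357 and 0.414, and WT libraries 0.758 and 0.343. The R821E libraries lay below the other 10, while the WT and R821A libraries spanned nearly the whole remaining range. The log2 difference of R821E from WT was -1.39 (two-sided exact permutation test, p = 0.333, the smallest that 2 libraries against 2 allow). Between the 5p strands, miR-15a-5p over miR-15b-5p was 0.648 and 0.571 in R821E, against 0.388 to 0.5004 in the other 10 libraries. Single entries on the TMM scale often separated likewise, with both R821E libraries above all others for 24.6% of tested entries and below for 21.9%. The share of all ratios of 2 entries that separate R821E is not given, so neither separation can be read as particular to these strands. Over these 22 differences of ratios, 11 ratios in each of the comparisons with WT and R821A, no exact permutation p could fall below 0.333.

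Few members passed in the remaining mutants. In E5, miR-16-1-3p was the 1 member that passed on the TMM scale, where 2.41% of all entries rose and 6.68% fell. Both E5 libraries lay above both WT libraries, as they did for 21.9% of all tested entries. miR-16-1-3p had 320.0 and 329.7 CPM in E5, against 173 and 187 CPM in WT, a log2 fold change of 0.85 ± 0.236 (adjusted p = 0.0357, edgeR). The groups did not overlap, but DESeq2 did not call it (adjusted p = 0.0793), and it was lost when any 1 of the 4 libraries was left out (0.0992 to 0.180). Without WT replicate 1, miR-15b-5p passed instead (log2 0.60, adjusted p = 0.0491, edgeR). A5 libraries, with 269 and 267 CPM for miR-16-1-3p, were also above WT, as for 18.7% of all tested entries. The log2 difference of E5 from A5 was 0.28 ± 0.231 (adjusted p = 0.694, edgeR). Its sister strand miR-16-2-3p had a log2 fold change of 0.04 ± 0.214 in E5. miR-16-1-3p over miR-16-2-3p was 0.312 and 0.306 in E5, 0.249 and 0.274 in A5, and 0.216 and 0.150 in WT. On the spike-in scale, where 27.3% of entries fell in E5 and none rose, miR-16-5p was the 1 member called, with a log2 fold change of -0.46 ± 0.138 (adjusted p = 0.0261, edgeR).

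No member passed in the other comparisons on the TMM scale. In R821A against WT, edgeR and DESeq2 called 0 of 10, none had an unadjusted p under 0.05, and the log2 fold changes ran from -1.49 for miR-424-3p to 0.21 for miR-195-5p, where 3.21% of all entries were called. In A5 both tools called 0 of 10, 1 had an unadjusted p under 0.05 (miR-16-1-3p, 0.57), and 0.267% of entries were called. In ΔPAZ helix both called 0, 1 had an unadjusted p under 0.05 (miR-16-5p, 0.31), and 0.267% were called. E5 against A5 gave 0 calls with either tool, 0 at an unadjusted p under 0.05 and 0 over all entries on either scale. On the spike-in scale edgeR also called 0 members in R821A, A5 and ΔPAZ helix, where 4.28%, 14.7% and 13.1% of entries were called. There, 3, 1 and 2 members had an unadjusted p under 0.05. All shares of entries called are at an adjusted p under 0.05. The share of all entries at an unadjusted p under 0.05 is not given, so the unadjusted counts of members cannot be read as an excess. The arm ratios of miR-15b and miR-16 passed in none of these comparisons or in E5 against WT (limma, 0 of 2 also at an unadjusted p under 0.05), where 3.95% of hairpins passed in E5 and 0% in the others.

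Summed over the 10 members, the family's share of all miRNA counts overlapped between the groups. It was 2.63% ± 0.174 in R821E, 2.49% ± 0.138 in R821A, 2.62% ± 0.235 in E5, 2.59% ± 0.116 in A5, 2.59% ± 0.0798 in ΔPAZ helix and 2.41% ± 0.333 in WT (SD, n = 2 each). With miR-21-5p left out of the total, the share was 5.97% ± 0.0110 in R821E, against 4.04% ± 0.296 in WT. The other mutants lay between, with 4.22% ± 0.0221 in R821A, 4.75% ± 0.148 in E5, 4.66% ± 0.123 in A5 and 4.67% ± 0.0378 in ΔPAZ helix. Per 1000 spike-in counts the family summed to 376 ± 11.3 in R821E, against 579 ± 20.6 in WT, and group means of 448 to 496 in the other mutants. The 3p strands made up 7.75% ± 0.246 of the family in R821E and 8.17% ± 1.66 in WT. Over all entries with an arm in the name they made up 12.4% ± 0.779 in R821E and 27.5% ± 1.77 in WT. That total includes the 5p entry miR-21-5p, with 56.0% of miRNA counts in R821E and 40.4% in WT. The 3p share of all entries without it is not given. Over all entries the 3p share was lower in both R821E libraries than in any other, while within the family it was 7.57% and 7.92% in R821E, inside the 6.99% to 9.34% of WT.

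**Figure D4:**
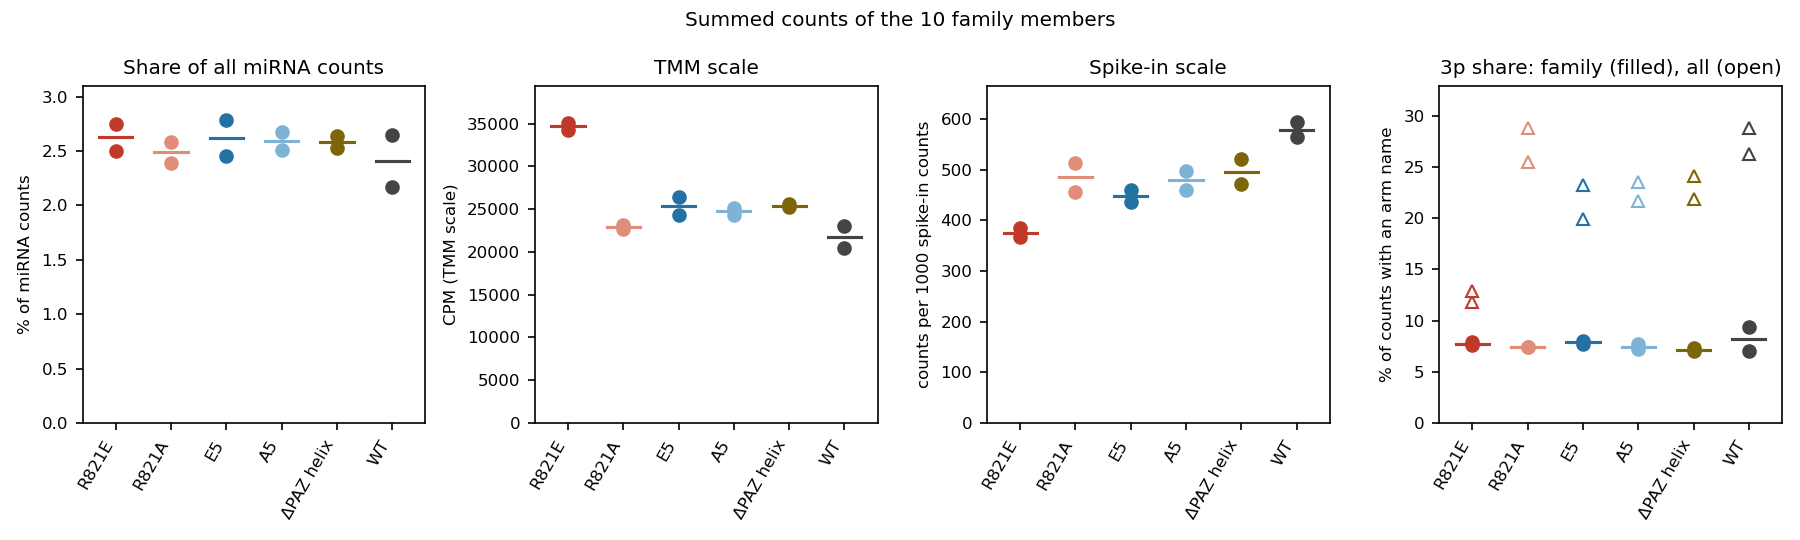
Summed counts of the 10 members in each library as a share of miRNA counts, on the TMM scale and per 1000 spike-in counts, and the 3p share among the members (filled) and among all entries with an arm name (open triangles). Vertical axes start at 0; points are libraries and bars are group means. R821E is highest in the TMM panel and lowest in the spike-in panel, and its open triangles lie near 12% against 20% to 29% elsewhere.

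Related miRNAs outside the 10 were taken from a list of 13 entries, 12 of them in the table and 6 of these tested. Their sequences show how close they come to the family, with the seed in capitals.
miR-503-5p: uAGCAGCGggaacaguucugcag
miR-103a-3p: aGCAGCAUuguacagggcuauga
miR-107: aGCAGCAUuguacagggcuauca

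miR-503-5p, the neighbour of miR-424, differs from the family in the last seed base, and miR-103a-3p and miR-107, known from insulin and metabolic control, carry the same motif shifted by 1 base. In R821E against WT, 0 of the 6 rose and 2 fell on the TMM scale, and 4 fell on the spike-in scale, where 24.1% and 60.4% of all tested entries fell. miR-103a-3p had 1295 and 1002 CPM in R821E, against 4469.7 and 2399.9 CPM in WT, a log2 fold change of -1.58 ± 0.338 (adjusted p = 0.00385, edgeR). miR-107 had 171 and 121 CPM in R821E, against 808 and 343 CPM in WT, a log2 fold change of -1.95 ± 0.485 (adjusted p = 0.00640). miR-503-5p, at -0.18 ± 0.308, did not pass (adjusted p = 0.650), nor did its cluster partners miR-450a-5p, miR-450b-5p and miR-542-5p. In R821E against R821A, miR-103a-3p (-1.21) and miR-107 (-1.52) fell, and miR-450a-5p rose (1.25 ± 0.357, adjusted p = 0.0146). Mean miR-103a-3p was also lower than the 3435 CPM of WT in E5 (2165), A5 (1832), ΔPAZ helix (1749) and R821A (2662). Neither miR-103a-3p nor miR-107 passed in these mutants on the TMM scale. On the spike-in scale 1 of the 2 fell in each of E5, A5 and ΔPAZ helix, where 27.3%, 14.7% and 13.1% of entries were lower, and 0 in R821A.

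Among members, the pattern of miR-16-5p over the 6 group means (log2 CPM, TMM scale) was most like that of miR-16-2-3p (Pearson r = 0.92) and miR-15a-5p (0.92), followed by miR-195-5p (0.88), miR-424-5p (0.76), miR-15b-5p (0.65) and miR-16-1-3p (0.60). It was weak for miR-497-5p (0.28) and miR-424-3p (0.11), while miR-15b-3p ran against it (-0.86). Among 242 other entries that averaged 100 CPM or more, the most alike were miR-181b-3p and let-7b-3p (both r = 0.99), let-7f-2-3p (0.99), miR-181b-5p (0.99) and miR-573 (0.98). With 6 points, of which R821E stands apart, and libraries shared by all entries, these values are a description.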

How the data were processed

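Small RNA from 12 HCT116 libraries was measured by AQ-seq (TRIzol RNA, a NovaSeq instrument, per the labels' protocols). The authors deposited raw counts per miRNA entry, 1 table per library. Tools listed in the submitters' processing notes are BWA, bedtools and cutadapt, with the builds mm10 and hg38. Versions of these tools, and the counting of reads that match several entries, are not stated. Library sizes and tests left out the 30 spike-in entries. Counts were tested with edgeR 4.0.16 in R 4.3.3 (quasi-likelihood, robust, TMM factors, filterByExpr by group with a minimum count of 10) in a single fit of all 12 libraries, with 6 residual degrees of freedom. The filter kept 374 entries with 99.6% of miRNA counts. Benjamini-Hochberg adjustment ran over these, at a threshold of 0.05. The spike-in scale used summed spike-in counts as library sizes. SE is the log2 fold change divided by the root of its F value. Arm ratios were tested with limma 3.58.1 (trend, robust) on log2((5p + 0.5)/(3p + 0.5)) for the 76 hairpins whose strands each averaged 20 counts or more, and strands that differ only in a locus number were summed. Both tests were checked on simulated counts. Alternatives were DESeq2 1.42.0, DESeq2 size factors, total counts, spike-in scale, no filter, only the libraries compared, the replicate block, each library left out, and for arm ratios a pseudocount of 1 and a minimum of 5 counts. Replicates differed by more than sampling noise (chi-square per degree of freedom 3.89 to 29.1). Sequences and miRNA coordinates are from RefSeq (GRCh38.p14), and host genes from GENCODE on GRCh38. All 10 members are named, with related entries and markers from fixed lists and the 5 entries most like miR-16-5p. Members and lists were chosen with earlier results of these data known.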

Additional observations from a re-analysis of the deposited data

How the results depend on the processing

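Of 860 values of single members under the alternatives, 789 kept their direction or passed in neither setting (84 changed sign without passing in either), 49 lost the threshold, 9 gained it and 13 reversed. For R821E against WT, 7 members passed by DESeq2 and with DESeq2 size factors, but 1 (lower) with total counts, 3 (all lower) on the spike-in scale and 4 without the filter. Leaving out 1 library gave 4 to 5. With total counts miR-15b-5p turned to -0.033. On the spike-in scale the log2 fold changes turned to -0.28 for miR-15a-5p, -0.78 for miR-15b-5p, -0.31 for miR-16-1-3p, -0.40 for miR-16-2-3p, -0.63 for miR-16-5p and -0.58 for miR-424-5p. The scale itself moved the median of all entries to -0.65 with total counts, where 40 rose and 148 fell, and to -1.38 with spike-ins. For R821E against R821A, where 6 members passed, 2 passed with total counts (1 each way), 2 on the spike-in scale (both lower) and 2 without the filter, and 3 to 5 with 1 library left out. With total counts miR-16-5p turned to -0.042, and on the spike-in scale miR-15b-5p turned to -0.34, miR-16-1-3p to -0.17, miR-16-5p to -0.49 and miR-424-5p to -0.12. The medians of all entries were -0.59 and -1.02. For E5 against WT the 1 member called became 0 by DESeq2, with total counts, without the filter, with the replicate block and with only the 4 libraries compared (9 members tested), and 0 to 1 with 1 library left out. On the spike-in scale miR-16-5p turned to -0.46. The number of arm ratios called for R821E against WT was 1 to 2 with 1 library left out. The cause of these differences was not tested, beyond the scales' own construction. The correlation of same-numbered deviations ran from -0.46 (WT and E5) to 0.32 (WT and R821A) over 15 pairs of groups and exceeded 0.1 in 1. These values cannot show whether same-numbered libraries were handled together. With the replicate block, R821E against WT gave 6 members, without miR-424-5p (adjusted p = 0.0611), and miR-16-1-3p in E5 missed the threshold (adjusted p = 0.0599, edgeR). Members with under 20 counts a library, miR-424-3p and miR-497-5p, could not show moderate changes at this depth.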
